A study of Mus musculus with 6 samples.

Results

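Transcript levels of 10 mouse genes that run the cell cycle transcription programme were followed through 3 macrophage cultures. They were E2f1, E2f2, E2f3, E2f7 and E2f8 of the E2F family, the MuvB subunit Lin9, its partners Mybl2 (B-Myb) and Foxm1, and the pocket proteins Rbl1 (p107) and Rb1. The genes were taken by symbol, and all 10 were found among the 22180 genes that a probe set with 1 gene symbol names on the array. Mybl2 and Rb1 had more than 1 such probe set, and the brighter one, by its mean across all 6 arrays, stands for the gene.

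All cells were bone marrow-derived macrophages of C57Bl/6 mice, grown for 5 days in 20 ng/ml M-CSF, the growth factor that carries monocyte precursors to macrophages and drives their division. They were replated for 6 days in 50 ng/ml M-CSF (2 arrays), in 20 ng/ml FSL-1 (2 arrays), or in 20 ng/ml FSL-1 to which nutlin-3a was added at 10 µM (2 arrays). FSL-1 is a synthetic lipopeptide that activates TLR2 with TLR6, and the study calls the resulting cells multinucleated giant cells. Nutlin-3a frees p53 from Mdm2, the ligase that marks it for degradation. The labels do not say whether M-CSF accompanied FSL-1, how the cells were sorted before RNA extraction, or whether the replicates were separate cultures or animals. An effect of FSL-1 therefore cannot be told apart from one of less or no M-CSF. Below, a change with FSL-1 means the FSL-1 arrays against the M-CSF arrays. Nutlin-3a was given together with FSL-1 in every array that received it, so its effect in cells kept in M-CSF was not measured.

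E2F proteins bind the promoters of replication genes, most of them together with a DP partner. Pocket proteins hold the activating members E2f1, E2f2 and E2f3 in check until cyclin-dependent kinases phosphorylate them, and E2f7 and E2f8 are atypical repressors that act without DP and without a pocket protein. The MuvB core joins the pocket protein p130 (Rbl2) and E2f4 in the repressive DREAM complex of resting cells. In dividing cells the same core binds B-Myb and then FoxM1, and switches on the genes of G2 and mitosis. MuvB reaches DNA through the CHR element, which often lies downstream of CCAAT boxes bound by NF-Y. Active p53 is known to raise the CDK inhibitor p21 (Cdkn1a), which favours DREAM.

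Sequence around the annotated starts was searched because several of these factors are known targets of their own family. RefSeq windows (GRCm38.p6) from 250 bases before a start to 50 after it were at hand for 7 of the 10 genes, in 9 windows, with an upstream and a downstream start for E2f2 and for E2f3. Both strands were searched for the E2F letters TTTCCCGC, TTTGGCGC, TTTGCCGC and TTTCGCGC, the CHR letters TTTGAA and TTCGAA, and CCAAT. No match in these windows overlapped a match of another motif. The E2F letters were in a window of 4 of the 7 genes, against 2.61% of the 27025 genes of the table. CHR letters were in 3 of 7 (21.7% of all genes), and CHR together with CCAAT was in the same 3 of 7 (8.61% of all genes). For E2f2 the CHR letters stood only at the downstream start (window chr4:136180532-136180831), which may lie within the gene. Its upstream window (chr4:136172024-136172323) held no CHR letters. The 250 bases before the start are shown for E2f8, E2f7 and Rbl1, which were all lower in FSL-1 + nutlin-3a than in M-CSF, and for the upstream start of E2f3, which went the other way. They lie at chr7:48881597-48881846 (minus strand), chr10:110745189-110745438 (plus strand), chr2:157204535-157204784 (minus strand) and chr13:29986064-29986313 (minus strand). Each is written on the strand of its gene, with matches in capitals, and a match on the opposite strand appears as its reverse complement (TTCAAA for CHR, ATTGG for CCAAT, GCGGGAAA for E2F).

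E2f8: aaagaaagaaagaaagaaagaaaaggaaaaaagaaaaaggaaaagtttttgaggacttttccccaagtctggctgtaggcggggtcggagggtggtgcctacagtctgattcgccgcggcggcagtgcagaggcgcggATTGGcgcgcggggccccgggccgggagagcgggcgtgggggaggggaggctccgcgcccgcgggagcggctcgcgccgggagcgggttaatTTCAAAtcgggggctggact
E2f7: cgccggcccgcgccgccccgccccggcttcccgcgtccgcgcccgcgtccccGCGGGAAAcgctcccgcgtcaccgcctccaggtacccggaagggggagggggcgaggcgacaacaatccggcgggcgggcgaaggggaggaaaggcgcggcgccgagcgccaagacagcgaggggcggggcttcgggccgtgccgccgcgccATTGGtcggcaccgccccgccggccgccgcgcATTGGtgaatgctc
Rbl1: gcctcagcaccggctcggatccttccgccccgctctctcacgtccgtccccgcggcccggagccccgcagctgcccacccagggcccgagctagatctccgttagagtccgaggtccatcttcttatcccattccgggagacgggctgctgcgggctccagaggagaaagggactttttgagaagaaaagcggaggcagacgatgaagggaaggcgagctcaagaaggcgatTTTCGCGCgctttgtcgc
E2f3 upstream start: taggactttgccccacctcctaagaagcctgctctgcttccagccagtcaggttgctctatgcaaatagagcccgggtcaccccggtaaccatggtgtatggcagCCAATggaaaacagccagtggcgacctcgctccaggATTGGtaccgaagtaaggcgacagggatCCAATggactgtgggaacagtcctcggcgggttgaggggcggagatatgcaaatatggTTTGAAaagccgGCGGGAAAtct

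E2f8 held CHR letters 20 to 15 bases before its start, with a CCAAT match from base -112, and no E2F letters. E2f7 held the opposite pair: E2F letters from base -198 and 2 CCAAT matches nearer the start, with no CHR letters. Rbl1 held E2F letters alone, from base -18. The upstream start of E2f3 held all 3 kinds, with CHR letters from base -23 and E2F letters from base -11, and its downstream start held none. E2f2 had E2F letters at base 39 after its upstream start, within chr4:136172302-136172323 (plus strand), as gcggcatatagTTTGGCGCtaa. The windows of E2f1 and Mybl2 held no exact match to the letters searched. Neither gene was thereby shown to lack such sites. The E2f1 window may lie within the gene and not at its main promoter. The bases before the Mybl2 start end in cttggcgggagatagg, which resembles the E2F letters but is none of the forms searched. A match describes the sequence only, and binding was not measured.

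**Figure D1:**
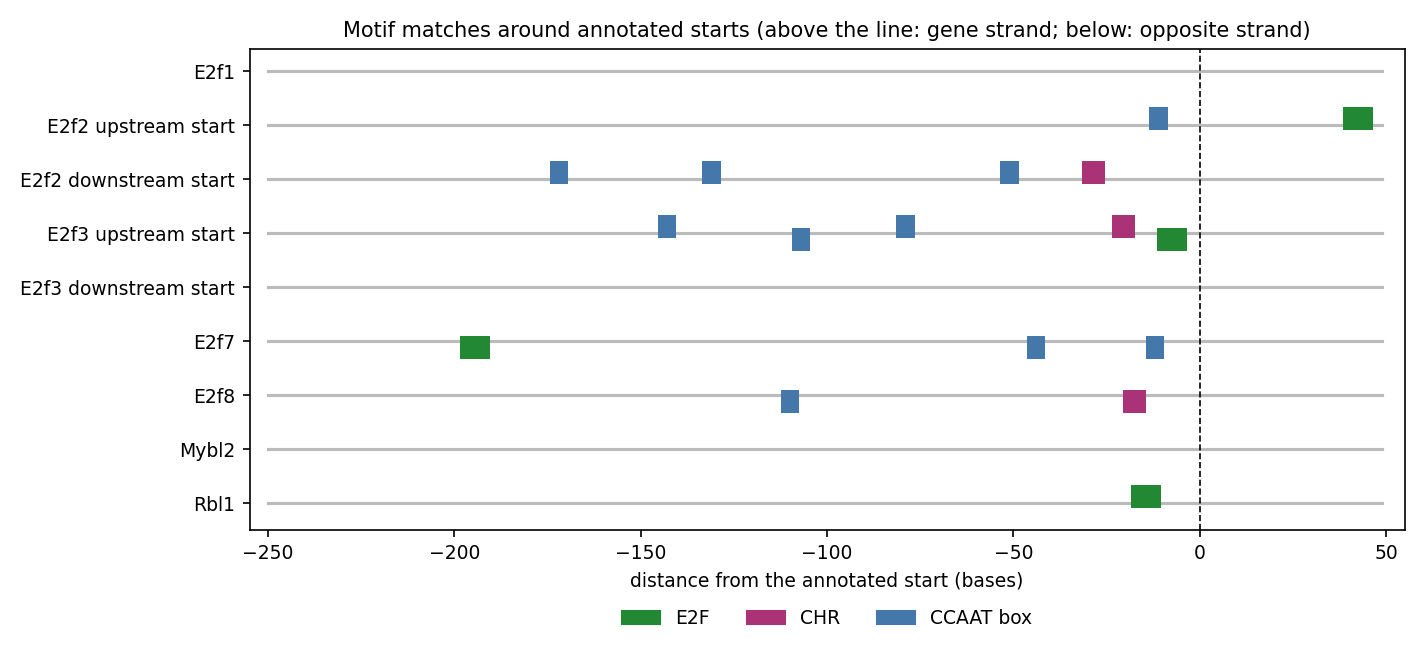
Motif matches in the 9 RefSeq windows of 7 genes, by distance in bases from the annotated start (dashed line); green marks E2F letters, purple CHR letters and blue CCAAT, above the line on the gene's strand and below it on the opposite strand. CHR letters lie within 31 bases before the start in E2f8, at the E2f2 downstream start and at the E2f3 upstream start. E2f1, Mybl2 and the E2f3 downstream start have no exact match to the letters searched, and other forms of these sites were not searched.

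All values below are log2 expression after the authors' RMA, and a change of 1 is a doubling in fold terms. A gene was called where limma's adjusted p (Benjamini-Hochberg over 22180 genes) was under 0.05. Arrays are numbered by the replicate numbers of the labels. Each gene is compared only with itself, because probe sets differ in brightness. The kept probe sets of all 10 genes had means over the 6 arrays above the median of all genes (5.51). On the FSL-1 + nutlin-3a arrays, however, E2f7 lay below it (5.35 and 5.17) and Foxm1 just above it (5.64 and 5.66). Replicate arrays correlated at 0.993 to 0.995 across genes and arrays of different groups at 0.979 to 0.986. The 8 macrophage markers were all above the median of all genes, and their summed linear level was 29898 to 31464 in M-CSF, 32122 to 32408 in FSL-1 and 31403 to 31877 with nutlin-3a.

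Among the activating E2Fs, E2f3 rose, while E2f1 and E2f2 had negative changes in all 3 comparisons, none of which passed in the fit to all genes and arrays. E2f3 was 6.11 and 6.10 on the M-CSF arrays, 6.64 and 7.01 on the FSL-1 arrays, and 7.13 and 7.11 with nutlin-3a added. Its groups did not overlap at either step, and it was the 1 factor of the 10 called higher in a comparison with M-CSF. In FSL-1 it was 1.65-fold higher than in M-CSF (log2 change 0.72, SE 0.143, adjusted p = 0.0239). That call failed without M-CSF array 1 (0.72), M-CSF array 2 (0.72) or FSL-1 array 2 (0.54). With nutlin-3a its further change was 0.29 (95% interval -0.04 to 0.62, adjusted p = 0.293). Between M-CSF and FSL-1 + nutlin-3a it rose 2.02-fold (log2 change 1.02, SE 0.143, adjusted p = 0.00388), and this call held without any 1 of the 6 arrays.

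E2f1, the founding member of the family, was 7.79 and 7.92 in M-CSF, 7.71 and 7.88 in FSL-1, and 7.74 and 7.67 in FSL-1 + nutlin-3a. The FSL-1 arrays overlapped those of both other groups, the nutlin-3a arrays lay just under the M-CSF arrays, and no comparison passed. The 95% interval of its change was -0.34 to 0.22 with FSL-1, -0.37 to 0.20 with nutlin-3a and -0.43 to 0.14 between FSL-1 + nutlin-3a and M-CSF. E2f2 was 6.64 and 6.85 in M-CSF, 6.66 and 6.50 in FSL-1, and 6.32 and 6.13 with nutlin-3a. Its M-CSF and FSL-1 arrays overlapped, and the nutlin-3a arrays lay below all others. Its change was -0.17 with FSL-1 (adjusted p = 0.572), -0.35 with nutlin-3a (adjusted p = 0.188) and -0.52 between FSL-1 + nutlin-3a and M-CSF (SE 0.137, adjusted p = 0.0542). This last change did not pass, but it did with trended and robust moderation (adjusted p = 0.0265), with arrays centred on their medians (-0.55, adjusted p = 0.0343), among genes above the median level (adjusted p = 0.0147) and with a crossed replicate block (adjusted p = 0.0369).

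The atypical repressors E2f7 and E2f8 were both highest in M-CSF and lowest with nutlin-3a. E2f8 was 7.61 and 7.94 in M-CSF, 7.24 and 7.23 in FSL-1, and 6.24 and 5.87 in FSL-1 + nutlin-3a. The groups stood apart at each step, and the fall from the FSL-1 to the nutlin-3a arrays was the wider one. With nutlin-3a it fell 2.27-fold (log2 change -1.18, SE 0.166, adjusted p = 0.00677), a call that failed without FSL-1 array 1 (-1.18, adjusted p = 0.0585) or FSL-1 array 2 (-1.19, adjusted p = 0.0577). The FSL-1 step of -0.54 did not pass (adjusted p = 0.107), but did with trended and robust moderation (adjusted p = 0.0425) and among genes above the median level (adjusted p = 0.0367). From M-CSF to FSL-1 + nutlin-3a E2f8 was 3.29-fold lower (log2 change -1.72, SE 0.166, adjusted p = 0.000643), the widest difference among the 10 genes, and it passed without any 1 of the 6 arrays.

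E2f7 was 6.17 and 6.42 in M-CSF, 5.76 and 5.68 in FSL-1, and 5.35 and 5.17 with nutlin-3a, and no groups overlapped. It fell 1.49-fold with FSL-1 (log2 change -0.57, SE 0.134, adjusted p = 0.0442). This call was narrow: the adjusted p was 0.0807 without M-CSF array 1 (change -0.70), 0.161 without M-CSF array 2 (-0.45), 0.17 without FSL-1 array 1 (-0.61) and 0.217 without FSL-1 array 2 (-0.54). It was 0.0574 without either one of the nutlin-3a arrays (-0.57). With nutlin-3a the further change of -0.46 did not pass (adjusted p = 0.0925), except among genes above the median level (adjusted p = 0.028). Over both steps E2f7 was 2.05-fold lower (log2 change -1.03, SE 0.134, adjusted p = 0.00267), again with any 1 array left out.

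**Figure D2:**
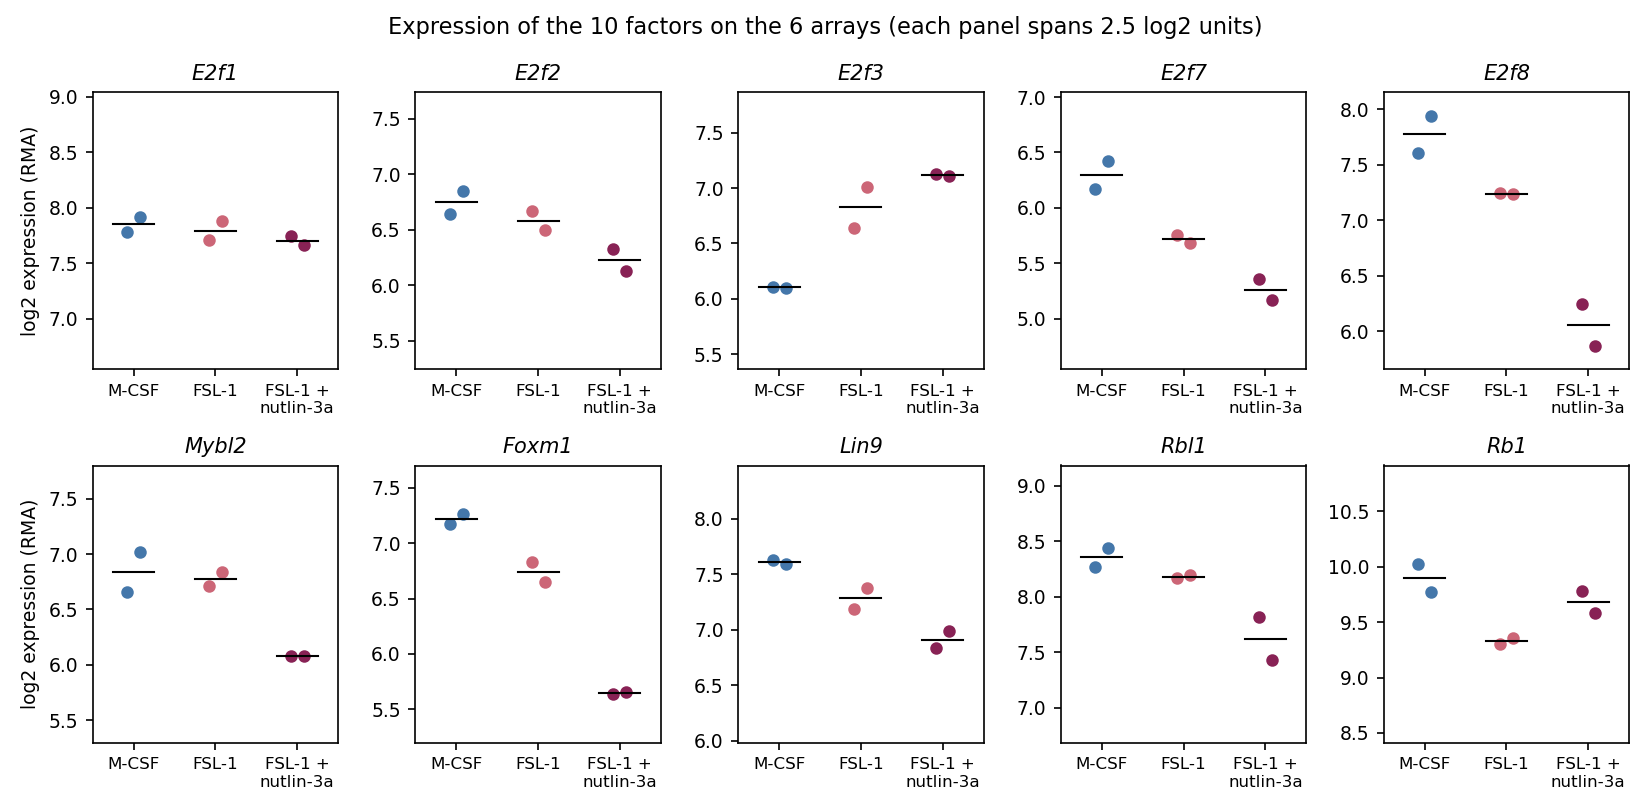
Log2 expression (RMA, vertical axis) of each of the 10 factors on the 6 arrays; points are arrays, 2 for each of M-CSF, FSL-1 and FSL-1 + nutlin-3a, bars are group means, and every panel covers the same number of log2 units. E2f3 climbs from 6.10 to 7.12 in mean, and E2f7, E2f8, Foxm1, Lin9 and Rbl1 descend without overlap between groups. The FSL-1 arrays of E2f1 overlap both other groups, and Rb1 is lowest in FSL-1.

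Foxm1, the forkhead factor that drives genes of G2 and mitosis, had the smallest adjusted p of the 10 with nutlin-3a. It was 7.17 and 7.26 in M-CSF, 6.83 and 6.65 in FSL-1, and 5.64 and 5.66 in FSL-1 + nutlin-3a. The groups were separate at both steps. Nutlin-3a lowered it 2.13-fold (log2 change -1.09, SE 0.121, adjusted p = 0.00242), and this call alone among the 10 factors held in that comparison without any 1 of the 6 arrays. With FSL-1 its change was -0.48 (SE 0.121, adjusted p = 0.0583), just short of the threshold. It passed with trended and robust moderation (adjusted p = 0.032), with arrays centred on their medians (-0.51, adjusted p = 0.0445) and among genes above the median level (adjusted p = 0.0143). Between FSL-1 + nutlin-3a and M-CSF it was 2.96-fold lower (log2 change -1.57, SE 0.121, adjusted p = 0.000206), also without any 1 array.

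Mybl2 encodes B-Myb, which joins MuvB as cells enter S phase. It was 6.65 and 7.02 in M-CSF, 6.71 and 6.84 in FSL-1, and 6.08 on both FSL-1 + nutlin-3a arrays. The M-CSF and FSL-1 arrays overlapped (change -0.06, 95% interval -0.40 to 0.27), and the nutlin-3a arrays lay below them all. It fell 1.62-fold with nutlin-3a (log2 change -0.70, SE 0.145, adjusted p = 0.032). The call failed without any 1 of the 4 compared arrays, where the change ran from -0.76 to -0.64 and the adjusted p from 0.116 to 0.18. Against M-CSF it was 1.69-fold lower (log2 change -0.76, adjusted p = 0.0157), a call that failed without M-CSF array 2 (-0.58, adjusted p = 0.0698) or nutlin-3a array 1 (-0.76, adjusted p = 0.0759) or 2 (-0.76, adjusted p = 0.0735). The other Mybl2 probe set gave group means of 5.00, 4.87 and 4.83, below the median of all genes, and a nutlin-3a change of -0.04 (adjusted p = 0.924). With the mean of both probe sets neither call was made (-0.37, adjusted p = 0.198, and -0.47, adjusted p = 0.0919).

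Lin9, the MuvB core subunit that contacts B-Myb, moved by smaller amounts. It was 7.63 and 7.59 in M-CSF, 7.19 and 7.38 in FSL-1, and 6.84 and 6.98 with nutlin-3a, with no overlap between groups. Its steps of -0.33 (adjusted p = 0.18) and -0.37 (adjusted p = 0.13) did not pass, except the second among genes above the median level (adjusted p = 0.0419). Over both it was 1.62-fold lower (log2 change -0.70, SE 0.124, adjusted p = 0.0113), a call that failed without M-CSF array 1 (-0.68, adjusted p = 0.0644), M-CSF array 2 (-0.72, adjusted p = 0.0502) or nutlin-3a array 1 (-0.62, adjusted p = 0.0701).

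Of the pocket proteins, Rbl1 was 8.27 and 8.44 in M-CSF, 8.17 and 8.19 in FSL-1, and 7.82 and 7.43 in FSL-1 + nutlin-3a. The FSL-1 arrays lay just under the M-CSF arrays and the nutlin-3a arrays further below. Its change was -0.17 with FSL-1 (adjusted p = 0.603) and -0.56 with nutlin-3a (SE 0.153, adjusted p = 0.0766). The latter passed with trended and robust moderation (adjusted p = 0.0176) and among genes above the median level (adjusted p = 0.0236). From M-CSF to FSL-1 + nutlin-3a it fell 1.66-fold (log2 change -0.73, SE 0.153, adjusted p = 0.0227). That call failed without M-CSF array 1 (-0.82, adjusted p = 0.0639), M-CSF array 2 (-0.65, adjusted p = 0.107) or nutlin-3a array 2 (-0.54, adjusted p = 0.0995).

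Rb1, the retinoblastoma protein gene, was the member that was lowest in FSL-1 alone. It was 10.02 and 9.77 in M-CSF, 9.30 and 9.35 in FSL-1, and 9.78 and 9.58 in FSL-1 + nutlin-3a. The FSL-1 arrays lay below all 4 others, and the M-CSF and nutlin-3a arrays overlapped. It fell 1.48-fold with FSL-1 (log2 change -0.57, SE 0.137, adjusted p = 0.0487). This call failed without any 1 of the 6 arrays, with changes from -0.70 to -0.44 and adjusted p from 0.0576 to 0.242. The change with nutlin-3a was 0.36 (95% interval 0.04 to 0.67, adjusted p = 0.183; 0.0496 with trended and robust moderation), and the difference between FSL-1 + nutlin-3a and M-CSF was -0.21 (adjusted p = 0.406).

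Further probe sets name Rb1. A second one that names it alone was dim, with means of 4.49 ± 0.54, 3.55 ± 0.39 and 4.42 ± 0.35 (SD, n = 2) in M-CSF, FSL-1 and FSL-1 + nutlin-3a, and its FSL-1 change of -0.94 did not pass (adjusted p = 0.105). The other 2 name Rb1 together with Lpar6, a receptor gene that lies within Rb1, and were left out by the rule. Their means were 9.87, 9.21 and 10.06, and 7.83, 6.97 and 7.50. All 4 probe sets had their lowest mean in FSL-1, and signal from the 2 genes cannot be told apart in the shared ones.

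**Figure D3:**
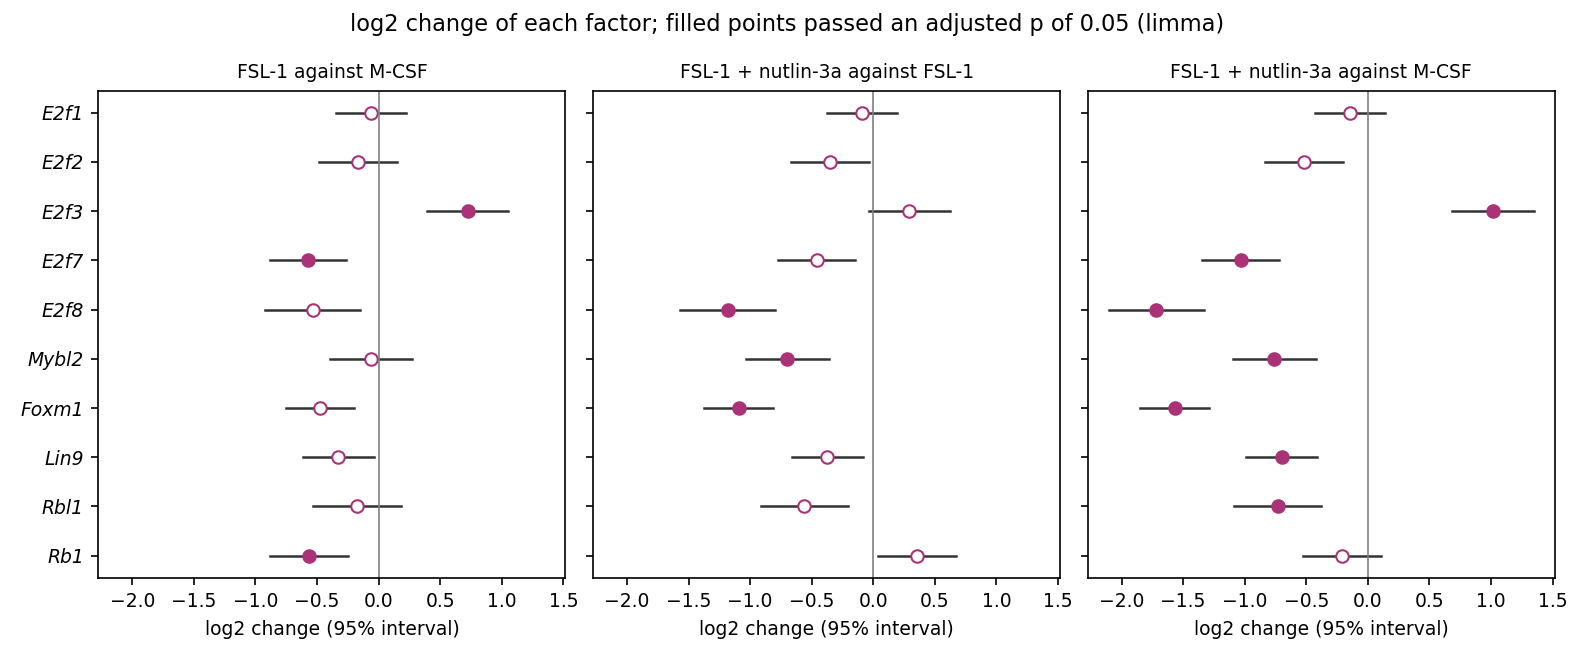
Log2 change (horizontal axis) of each of the 10 factors in the 3 comparisons, with 95% intervals from the limma fit on all 6 arrays; filled points passed an adjusted p of 0.05. In FSL-1 against M-CSF the filled points are E2f3, E2f7 and Rb1, with nutlin-3a they are E2f8, Mybl2 and Foxm1, and over both steps 7 of 10 are filled, with E2f3 alone to the right of 0.

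By count, FSL-1 against M-CSF gave 1 factor higher (E2f3) and 2 lower (E2f7 and Rb1) of 10, where 6.86% of all genes were called, 3.91% as higher and 2.95% as lower. The median change of the 10 was -0.25, and that of all genes -0.01. Adding nutlin-3a gave 3 lower (E2f8, Mybl2 and Foxm1) and 0 higher, where 6.5% of all genes were called, 2.38% as higher and 4.12% as lower. The median change of the 10 was -0.42, and that of all genes 0.02. At an unadjusted p of 0.05 (limma), 7 were lower and 1, Rb1, higher in that comparison. Of all 22180 genes, 2406 were lower and 2305 higher at this threshold. With FSL-1 the same threshold gave 5 factors lower and 1 higher, and 2336 and 2376 of all genes. No factor was called at both steps in the fit to all genes and arrays, but Foxm1 and E2f8 were with trended and robust moderation and among genes above the median level. So were Foxm1 with centred arrays, E2f7 among genes above the median level, and Rb1, in opposite directions, with trended and robust moderation. Whether a factor's 2 steps differ was not tested, because both use the FSL-1 arrays, with opposite sign. FSL-1 + nutlin-3a against M-CSF gave 6 lower (E2f7, E2f8, Mybl2, Foxm1, Lin9 and Rbl1) and 1 higher (E2f3), where 9.51% of all genes were called, 4.58% as higher and 4.94% as lower. This last comparison adds up the other two and is no further evidence. With FSL-1 the 2 groups did not overlap for 7 of the 10 (1 higher, 6 lower), against 50.2% of all genes (24.6% higher, 25.6% lower). With nutlin-3a they did not for 9 of 10 (2 higher, 7 lower), against 50.9% (27.2% and 23.7%). Over both steps they did not for 9 of 10 (1 higher, 8 lower), against 51.5% (27.3% and 24.2%).

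These counts of 3, 3 and 7 depended on single arrays. For FSL-1 against M-CSF the count was 0 without M-CSF array 1, M-CSF array 2 or FSL-1 array 2, and 1 without FSL-1 array 1 or either nutlin-3a array. With nutlin-3a it was 1 without either FSL-1 array and 2 without either nutlin-3a array. Over both steps it was 4 without M-CSF array 2 and 5 without M-CSF array 1 or either nutlin-3a array. In bulk RNA, fewer cells in a given cycle phase and less RNA in each such cell cannot be told apart.

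Of the 11 other subunits of these complexes, none passed with FSL-1 (6.86% of all genes did) or with nutlin-3a (6.5%). A list of 11 is too small for 0 calls to stand apart from these shares. At an unadjusted p of 0.05 (limma), 2 were higher and 2 lower at each step. Of all 22180 genes, 2376 were higher and 2336 lower with FSL-1, and 2305 and 2406 with nutlin-3a. The median changes of the 11 were -0.004 and 0.06. In the limma fit with trended and robust moderation 3 passed at each step, and among genes above the median level 2 and 4. Over both steps 1 rose and 1 fell (18.2%, against 9.51% of all genes), a count that depended on single arrays. E2f4, the E2F of the DREAM complex, was 8.74 and 8.59 in M-CSF, 8.92 and 9.14 in FSL-1, and 9.36 and 9.44 in FSL-1 + nutlin-3a. Its arrays did not overlap at either step, but the changes of 0.36 (adjusted p = 0.156) and 0.37 (adjusted p = 0.141) did not pass. Against M-CSF it rose 1.66-fold (log2 change 0.74, SE 0.129, adjusted p = 0.0107), a call that failed without M-CSF array 2 (0.66, adjusted p = 0.0625) or nutlin-3a array 2 (0.69, adjusted p = 0.0641).

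Rbl2, the p130 subunit of DREAM, was 9.60 and 9.31 in M-CSF, 8.93 and 9.09 in FSL-1, and 9.62 and 9.45 with nutlin-3a. Like Rb1 it was lowest in FSL-1, but its changes of -0.44 (adjusted p = 0.123) and 0.53 (adjusted p = 0.0757) did not pass. Rbbp4, a histone-binding MuvB core subunit, fell over both steps (log2 change -0.57, SE 0.138, adjusted p = 0.0388). That call failed without any 1 array other than nutlin-3a array 1, with changes from -0.62 to -0.43. It was also lost with the mean of its probe sets (-0.30, adjusted p = 0.234). The same held with the compared groups alone (adjusted p = 0.0658) and with the replicate block (adjusted p = 0.062, limma). The MuvB core subunits Lin37, Lin52 and Lin54 had changes of -0.03, 0.19 and 0.06 with FSL-1 and 0.01, 0.06 and -0.14 with nutlin-3a. The DP partners were at -0.004 (Tfdp1) and -0.47 (Tfdp2) with FSL-1, and at -0.11 and 0.09 with nutlin-3a. E2f5 had 0.0005 and 0.19, E2f6 0.33 and -0.38, and Mybl1 -0.38 and 0.16, none of them called.

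The genes that these factors are known to drive were described by phase. The textbook G1/S set holds replication and nucleotide synthesis genes under E2F, and 28 of 32 were measured. With FSL-1 none of the 28 passed, where 6.86% of all genes did, and the median was -0.03. At an unadjusted p of 0.05 (limma), 3 were higher and 5 lower, beside 2376 and 2336 of all 22180 genes. The alternatives called 0 to 4 of the 28 with FSL-1. With nutlin-3a 13 of 28 fell and 0 rose (46.4%, against 6.5% of all genes), with a median of -0.67. Over both steps 16 of 28 fell (57.1%, against 9.51% of all genes). Rrm2, the small subunit of ribonucleotide reductase, was 6.72 and 7.22 in M-CSF, 7.14 and 7.28 in FSL-1, and 5.61 and 5.51 with nutlin-3a. The FSL-1 and M-CSF arrays overlapped, and nutlin-3a lowered it 3.13-fold (log2 change -1.65, SE 0.171, adjusted p = 0.00196). The large subunit Rrm1 had -1.34, the helicase factor Cdc45 -0.86 and the GINS subunit Gins1 -1.01 with nutlin-3a. These 3 calls, unlike that of Rrm2, were lost without FSL-1 array 2 (-1.26, -0.86 and -0.79) and each without at least 1 other compared array. Against M-CSF, Rrm1 (-1.78), thymidylate synthase Tyms (-1.45), Rrm2 (-1.41) and the polymerase gene Pola1 (-1.16) fell in each fit with 1 array left out. The nutlin-3a count of 13 dropped to 2 with FSL-1 array 1 left out, to 1 with array 2 left out, and to 3 without either nutlin-3a array. The count of 16 over both steps became 10 without M-CSF array 2 or either nutlin-3a array.

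The G2/M set, under MuvB with B-Myb and FoxM1, had 34 of 36 genes measured. It fell at both steps: 25 of 34 with FSL-1 (73.5%, against 6.86% of all genes, median -0.83) and 33 of 34 with nutlin-3a (97.1%, against 6.5%, median -1.64). None rose at either step, and none had an unadjusted p under 0.05 in that direction (limma). In all, 24 genes passed at both steps. Kif11, the spindle motor that pushes poles apart, was 8.26 and 8.49 in M-CSF, 7.34 and 7.44 in FSL-1, and 5.06 and 4.82 with nutlin-3a. Its groups were far apart, and it fell 5.46-fold with nutlin-3a (log2 change -2.45, SE 0.14, adjusted p = 0.000206). Kif23, the motor of the central spindle, fell by 1.38 with FSL-1 and by 2.05 with nutlin-3a on the log2 scale. The centromeric histone Cenpa was 9.29 and 9.05, then 7.58 and 7.41, then 6.86 and 6.82. It had the largest FSL-1 change of the set (-1.67, SE 0.131, adjusted p = 0.000364).

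The kinetochore gene Ndc80 (-1.04) and the cytokinesis motor Kif14 (-1.03) fell with FSL-1. The kinetochore gene Nuf2 (-2.19) and the cytokinesis exchange factor Ect2 (-2.02) fell with nutlin-3a. Kif14 was the 1 gene of the set that did not pass with nutlin-3a (-0.41, adjusted p = 0.0832). Over both steps all 34 fell, with a median of -2.38, among them the spindle gene Nusap1 (-3.43), Kif11 (-3.43), Kif23 (-3.42) and Nuf2 (-2.96). For Cenpa, Kif23, Kif14 and Ndc80 the FSL-1 calls held without any 1 array, as did the nutlin-3a calls of Nuf2, Kif11, Kif23 and Ect2. The FSL-1 count of 25 dropped to 10 or 11 when M-CSF array 1 or 2 was left out and to 7 or 9 when FSL-1 array 1 or 2 was, while the nutlin-3a count was 25 to 32 in such fits.

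Letters were counted in the promoters of the target sets in the same way. The sets were chosen as textbook targets of E2F and of MuvB. A difference in these letters between them was therefore partly fixed by that choice and is no result of the arrays. E2F letters were in the windows of 11 of 24 G1/S genes (45.8%) and of 1 of 28 G2/M genes (3.57%), beside 2.61% of all genes. CHR letters were in 5 of 24 G1/S genes (20.8%) and 21 of 28 G2/M genes (75%), beside 21.7% of all genes. CCAAT alone or with other letters was in 17 of 24 G1/S genes (70.8%) and 23 of 28 G2/M genes (82.1%), beside 41.1% of all genes. CHR with CCAAT was in 20 of 28 G2/M genes (71.4%) and 4 of 24 G1/S genes (16.7%), beside 8.61% of all genes. Of the 8 G2/M genes named above by their changes, 6 held CHR letters, and Nuf2 and Nusap1 did not. The match nearest the start is shown for 3 of them beside those of E2f8 and E2f3, since these hold the same letters. Each is written on the strand of the match with the CHR letters in capitals. The sites lie at chr19:37376352-37376379 (minus strand) for Kif11, chr9:61946781-61946808 (minus strand) for Kif23, chr5:30666891-30666918 (plus strand) for Cenpa, chr7:48881600-48881627 (plus strand) for E2f8 and chr13:29986070-29986097 (minus strand) for E2f3.

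Kif11: cgcgcctcaatTTTGAAaaatggagacg
Kif23: tgattggcctgTTTGAAatgcgccgggc
Cenpa: gcgggtgatttTTTGAActgctggcgac
E2f8: ccagcccccgaTTTGAAattaacccgct
E2f3: tgcaaatatggTTTGAAaagccggcggg

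Over both steps the log2 change was -3.43 for Kif11, -3.42 for Kif23 and -1.72 for E2f8. E2f3, with the same 6 letters before its upstream start, rose by 1.02. Its downstream start held no such letters, and which start gave the E2f3 signal was not measured. The letters began at base -19 in Kif11, -20 in E2f8 and -23 in E2f3. In Kif23 and Cenpa they began after the start, at base 2 and base 16. Of the 6 named G1/S genes Gins1 had no window, and among the other 5 Pola1 alone held E2F letters, at chrX:93632275-93632304 (plus strand). Its site is set below beside those of Rbl1 and E2f7, which also fell over both steps, and of E2f3, which rose. The sites of Rbl1, E2f7 and E2f3 lie at chr2:157204534-157204563 (minus strand), chr10:110745230-110745259 (minus strand) and chr13:29986056-29986085 (plus strand).

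Pola1: gcgggagtgcaTTTGGCGCcctgtgatgac
Rbl1: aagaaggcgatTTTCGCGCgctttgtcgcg
E2f7: acgcgggagcgTTTCCCGCggggacgcggg
E2f3: cgaaactcagaTTTCCCGCcggcttttcaa

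**Figure D4:**
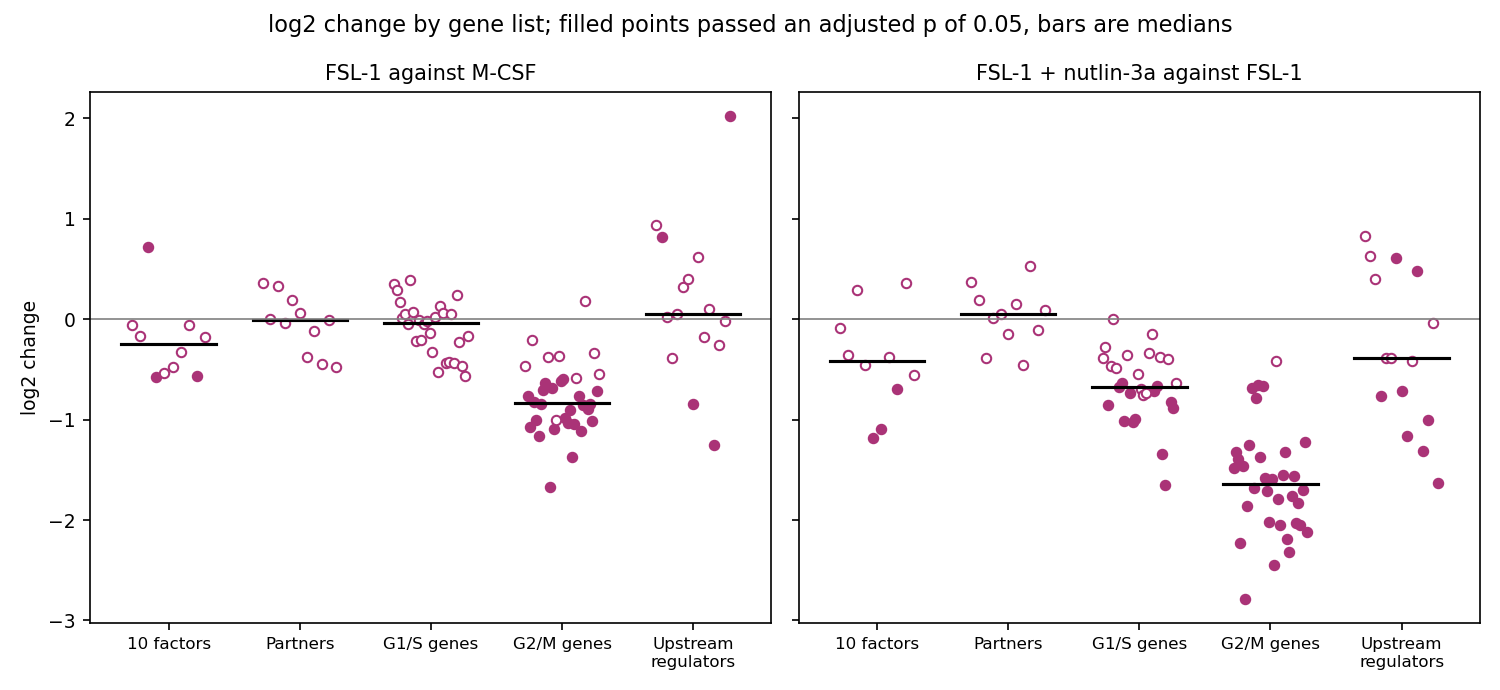
Log2 change (vertical axis) of the 10 factors, their 11 partners, 28 G1/S genes, 34 G2/M genes and 15 upstream regulators, in FSL-1 against M-CSF (left) and FSL-1 + nutlin-3a against FSL-1 (right); each point is a gene, filled where it passed an adjusted p of 0.05, and bars are medians. The G1/S median is -0.03 on the left and -0.67 on the right, and the G2/M median is -0.83 and -1.64.

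Regulators that act on the pocket proteins and MuvB changed in both directions. With FSL-1, 2 of 15 rose and 2 fell (26.7%, against 6.86% of all genes), and with nutlin-3a 2 rose and 6 fell (53.3%, against 6.5%). Cdkn1a, the p21 gene and a standard readout of active p53, was 11.87 and 11.69 in M-CSF, 12.12 and 12.23 in FSL-1, and 12.65 and 12.92 with nutlin-3a. Its groups did not overlap, and it rose by 0.61 with nutlin-3a (SE 0.139, adjusted p = 0.0431). That call failed without any 1 of the 6 arrays, where the change ran from 0.47 to 0.74. Cdkn2b, the p15 gene, had 0.48 with nutlin-3a (adjusted p = 0.042), likewise lost without any 1 array (0.47 to 0.49). Both were named after their values were seen, as the pair that rose.

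The other CDK inhibitors had negative changes at both steps, except Cdkn1c with FSL-1. Cdkn1c had 0.62 with FSL-1 (adjusted p = 0.103) and -1.17 with nutlin-3a (adjusted p = 0.0129). Cdkn2a was called neither with FSL-1 (-0.18, adjusted p = 0.459) nor with nutlin-3a (-0.42, adjusted p = 0.0772). Cdkn2c (p18) was 8.28 and 8.51 in M-CSF, 7.17 and 7.12 in FSL-1, and 6.06 and 5.60 with nutlin-3a. It fell by 1.25 with FSL-1 (adjusted p = 0.00501) and by 1.32 with nutlin-3a (adjusted p = 0.00454) on the log2 scale, calls that held without any 1 array. Cdkn2d (p19) fell by 1.00 with nutlin-3a (adjusted p = 0.00281), also without any 1 array. Cdkn1b (p27) had -0.85 with FSL-1 (adjusted p = 0.0165), a call that failed without M-CSF array 1 (-0.72) or FSL-1 array 1 (-0.68), and it was 2.95-fold lower over both steps (adjusted p = 0.000663). Cdk2, the kinase of S phase entry, had -0.76 with nutlin-3a (adjusted p = 0.0121), lost without any 1 of the 4 compared arrays (-0.80 to -0.73).

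Myc, a driver of cell growth and of E2F genes, rose with FSL-1 and fell with nutlin-3a. It was 6.66 and 7.50 in M-CSF, 9.11 and 9.10 in FSL-1, and 7.27 and 7.66 in FSL-1 + nutlin-3a. The increase with FSL-1 (2.02, SE 0.259, adjusted p = 0.00397) held without any 1 array. The decrease with nutlin-3a (-1.64, adjusted p = 0.0114) was lost without FSL-1 array 1 (-1.63), FSL-1 array 2 (-1.64) or nutlin-3a array 1 (-1.44). The D-type cyclin Ccnd2 had 0.82 with FSL-1 (adjusted p = 0.0482), a call that failed without any 1 array other than FSL-1 array 1 (0.53 to 0.94). The FSL-1 count of 4 was 2 without M-CSF array 1, and the nutlin-3a count of 8 was 2 without FSL-1 array 2 and 3 without FSL-1 array 1 or either nutlin-3a array.

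The genes whose levels over the 6 arrays were most like those of 4 of the factors were sought among 840 genes above the median level whose group means spanned over 1 log2 unit. For Foxm1 they were the VEGF receptor gene Kdr (Pearson r = 0.9999), the spindle protein gene Tacc3 (0.999) and the kinetochore gene Pmf1 (0.998). For E2f8 they were the centrosomal kinase Nek2 (0.999), Pola1 (0.997) and the primase Prim1 (0.996). For Mybl2 they were the acyltransferase Mboat1 (0.992), the helicase subunit Mcm3 (0.989) and the clamp loader subunit Rfc5 (0.988). For E2f1, which hardly varied, they were Mcm5 (0.92), Mcm7 (0.84) and Fancd2 (0.83). These are descriptions over 6 arrays that share 3 treatments, and the best of many genes will correlate highly.

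Markers of other cells were mostly dim but some moved with the comparisons. Of the markers of neutrophils 1 of 8, lymphocytes 1 of 7, fibroblasts 3 of 8, dendritic cells 2 of 7, and erythroid, mast cells and megakaryocytes 2 of 5 were above the median of all genes. With FSL-1 the neutrophil markers S100a8 (2.40) and Cxcr2 (0.60), the dendritic marker Ccr7 (0.65) and the megakaryocyte marker Pf4 (0.71) rose and Cd4 fell (-1.01). Most of each list did not follow. Not called with FSL-1 were 6 of 8 neutrophil, 6 of 7 lymphocyte and 6 of 7 dendritic markers. So were 4 of 5 erythroid, mast cell and megakaryocyte markers. The median changes were 0.12, -0.06, -0.01 and -0.07, and the neutrophil marker Elane had -0.45. With nutlin-3a Cd4 rose (0.64), and Pf4 (-0.86) and the fibroblast marker Col1a2 (-0.80) fell, each the only call of its list. Over both steps S100a8 (2.17) and the stromal marker Pdgfrb (0.57) rose, again each the only call of its list. Among the macrophage markers, the M-CSF receptor gene Csf1r fell (-0.87) and Adgre1 (0.56) and Itgam (0.74) rose with FSL-1, and Cd14 (-1.12) and Fcgr1 (-1.58) fell with nutlin-3a. The summed linear level of the neutrophil list was 199 to 203 in M-CSF, 294 to 297 in FSL-1 and 265 to 285 with nutlin-3a. It was 1511 to 1834, 845 to 925 and 1274 to 1365 for the lymphocyte list, and 336 to 357, 387 to 439 and 321 to 328 for the fibroblast list. The dendritic list had 571 to 637, 727 to 753 and 635 to 671, and the last list 409 to 450, 636 to 637 and 398 to 405. The lymphocyte sum rests on Cd4, at 10.75 and 10.44 in M-CSF, 9.51 and 9.68 in FSL-1, and 10.18 and 10.28 with nutlin-3a, while its other 6 markers were at 3.12 to 4.92. The dendritic sum likewise rests on Cd209a (8.69 to 9.17) and the last one on Pf4 (8.25 to 9.12). The higher neutrophil sums in FSL-1 and with nutlin-3a rest mostly on S100a8. It was 4.49 and 3.90 in M-CSF, 6.50 and 6.69 in FSL-1, and 6.60 and 6.13 with nutlin-3a. The part of these markers in the changes above was not tested.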

How the data were processed

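RNA of sorted cells was amplified (NuGEN Ovation PicoSL), per the labels' protocols, and read on 1 Affymetrix array per sample, 2 in each of 3 groups. The deposited values are log2 expression; the submitters' processing notes name RMA and Affymetrix Expression Console 1.4. RMA forces the arrays to a common distribution, so a shift shared by all genes would not be seen. Array medians ran from 5.05 to 5.14, and precision is limited by how few arrays there are.

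The platform annotation gives 1 gene for 23521 of 34390 probe sets, more than 1 for 1814 and no gene for 9055. One probe set was kept for each of 22180 genes, the one with the highest mean. limma 3.58.1 (R 4.3.3; lmFit and eBayes, 3 residual and 4.88 prior degrees of freedom) was fitted to all 6 arrays, with Benjamini-Hochberg adjustment over all genes and a threshold of 0.05. The code was also run on data simulated under the assumptions of limma itself. That run was a check of the code only and does not vouch for the calls made here. P-values measure only the spread between these arrays, which may be technical. The members and gene lists were chosen with earlier results of these data known. Genes outside the 10 were named as up to 4 called genes per list and comparison with the smallest p, and every partner subunit. The CDK inhibitors Cdkn1a, Cdkn2b, Cdkn1c and Cdkn2a were named outside this rule. Alternatives were trended and robust moderation, centring, a second quantile normalization, the mean of probe sets, a filter at the median level, the compared groups alone, the replicate block and leaving out each array. Replicate numbers were not shown to pair the arrays. Promoter windows come from RefSeq (GRCm38.p6).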

Additional observations from a re-analysis of the deposited data

How the results depend on the processing

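With 2 arrays a group, the counts of calls moved most. Leaving out 1 array gave 451 to 1299 genes called with FSL-1 (1521 with all arrays), 352 to 1212 with nutlin-3a (1441) and 1158 to 1529 over both steps (2110). The 10 factors had 0 to 1, 1 to 3 and 4 to 7 calls in these fits, the partners 0 to 2 over both steps, and the G1/S genes 1 to 14 with nutlin-3a and 10 to 17 over both. The G2/M genes had 7 to 25 with FSL-1, and the upstream regulators 2 to 4 with FSL-1, 2 to 7 with nutlin-3a and 6 to 9 over both. Trended and robust moderation called 2744, 2658 and 3337 genes in the 3 comparisons. It called 5 factors at each step, 3 partners at each step, and 1 G1/S gene and 7 regulators with FSL-1. Testing only genes above the median level called 2682, 2579 and 3290 genes. It gave 5 factors with FSL-1 and 6 with nutlin-3a, 2 and 4 partners, and 4 G1/S genes and 7 regulators with FSL-1. A second quantile normalization called 1 partner with FSL-1, and the mean of probe sets 1 partner over both steps. The compared groups alone gave 1 factor with FSL-1 and 1 partner over both steps. The replicate block gave 1 factor with FSL-1, 5 regulators with nutlin-3a and 1 partner over both steps. Same-numbered arrays deviated with correlations of -0.19, 0.02 and -0.02, so no pairing was shown. Crossing the numbers of the M-CSF arrays in the block, an alternative added after seeing the data, gave 1 partner over both steps. The sign turned in uncalled changes when 1 array was left out: E2f1 with FSL-1 ran from -0.14 to 0.024, Mybl2 with FSL-1 from -0.24 to 0.12, Rrm2 with FSL-1 from -0.0083 to 0.49 and Myc over both steps from -0.036 to 0.81. Where a count moved, the cause was not tested beyond fewer arrays or genes in the fit. No scaling moved the median change of all genes by more than 0.1.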
